A study of Homo sapiens with 9 samples.

Results

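The transcription factors PAX2, PAX8, SIX2, LHX1, WT1, EYA1, SALL1, GATA3 and OSR1, which direct the formation of the kidney in the embryo, were examined in HEK293 cells, a line derived from human embryonic kidney cells. The 9 genes were taken by name as known regulators of kidney development, and 8 of them were matched to a row among the 54562 genes of the expression table. LHX1 was not analysed here, because the identifier that the annotation gives it could not be matched. Of the 8 genes, 7 had a mean of at least 1 FPKM (fragments scaled to gene length and to the mapped fragments of the library) over all libraries and were tested together with the other genes at that level, 13801 in all, and PAX8 was below it. The cells received an empty vector (EV), a plasmid for the ADARB1 isoform without the Alu exon (Short), or a plasmid for the isoform that includes the Alu exon (Long), all by transient transfection with a lipid reagent, and RNA was collected after 48 hours. ADARB1 is an enzyme that deaminates adenosine to inosine in double-stranded RNA. Each group had 3 strand-specific libraries of polyA RNA. The replicate number was taken to stand for the cell passage, since the methods repeat the transfections in different passages. In the main fit the passage was a block. The p-values of that fit measure the spread left after plasmid and passage, in this 1 line.

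The kidney arises from the intermediate mesoderm, where OSR1, PAX2, PAX8 and LHX1 mark the early lineage. SIX2, EYA1, SALL1 and WT1 act in the nephron progenitors of the cap mesenchyme, and WT1 later also acts in the podocytes of the glomerulus. GATA3 and PAX2 act in the nephric duct and in the ureteric bud, which branches into the collecting ducts.

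Summed over genes, FPKM came to 517170 to 541348 in EV, 533531 to 589535 in Short and 544461 to 567585 in Long. The number of fragments per library is not given, but the steps that single fragments leave in values under 0.05 FPKM allow the relative depth to be estimated. It was 0.993 to 1.21 in the remaining 8 libraries when EV replicate 1 is taken as 1. Only 22.1% to 45.9% of the genes used in a library lay close to its estimate, so the depths are approximate. ADARB1 was at 7.66 to 8.61 FPKM in EV, 1889 to 4145 in Short and 1695 to 3449 in Long and thus higher in all 6 libraries of the ADARB1 plasmids.

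The question of which factors were on in EV was asked first. A gene was called on when it had at least 1 FPKM in each of the 3 EV libraries. By this measure 6 of the 8 factors were on, GATA3, SALL1, WT1, SIX2, EYA1 and PAX2, while OSR1 and PAX8 were not. The 6 were at 2.28 to 12.3 FPKM on average, a 5.39-fold range, and 5 of them were below the median of 11.6 FPKM of the 13815 genes that reached a mean of 1 FPKM in EV. PAX2, the lowest of the 6, had 1.73 FPKM in its lowest EV library, and OSR1, the nearest below, had 0.966. In bulk libraries, fewer cells that express a factor and less RNA per cell cannot be told apart.

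**Figure D1:**
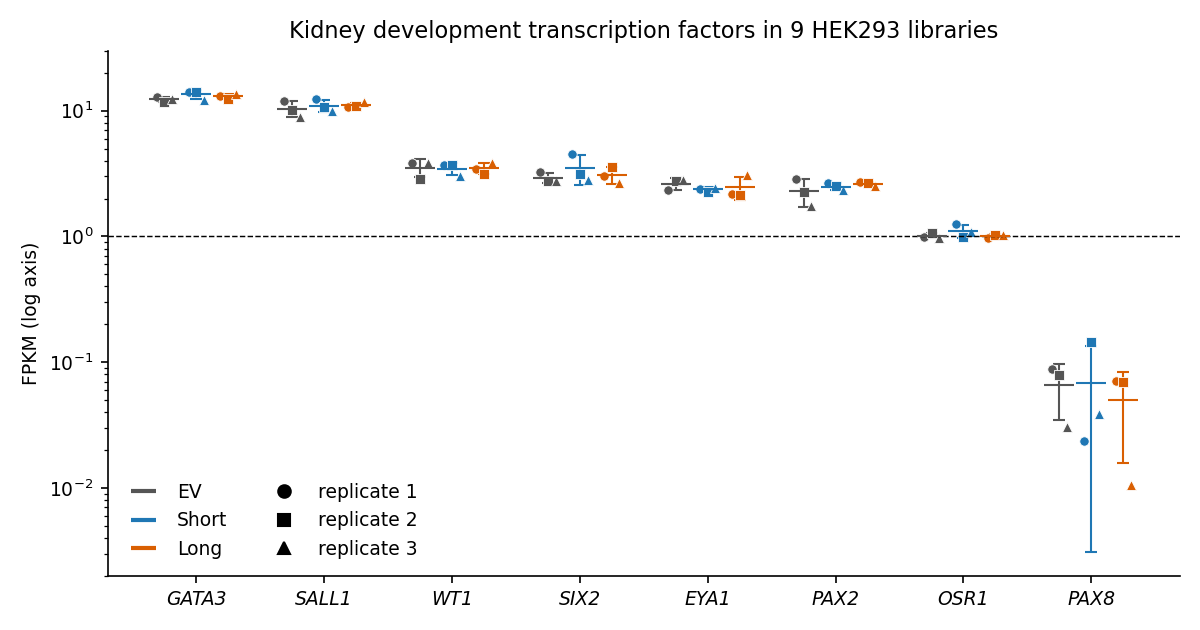
FPKM (log axis) of the 8 transcription factors in the 9 libraries. Points are single libraries, with the shape giving the replicate number, horizontal lines and bars are the mean and SD of the 3 libraries of a group, and the dashed line is 1 FPKM. GATA3 and SALL1 lie above the other factors, OSR1 lies on the dashed line, PAX8 lies at most at 0.144 FPKM, and the 3 groups overlap for every gene.

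GATA3 (ENSG00000107485, GRCh37 chromosome 10, 8087341 to 8117161, plus strand), a zinc finger factor of the nephric duct and of T cells, was the highest. It was at 12.8, 11.7 and 12.3 FPKM in EV replicates 1, 2 and 3 (12.3 ± 0.555, SD, n = 3), above 51.7% of the genes expressed in EV. SALL1 (ENSG00000103449, chromosome 16, 51169893 to 51186245, minus strand), a zinc finger repressor that keeps nephron progenitors undifferentiated, followed with 11.9, 10.2 and 8.97 FPKM (10.4 ± 1.46). GATA3 was above SALL1 in 3 of 3 libraries, but the ranges of the 2 genes overlapped.

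WT1 (ENSG00000184937, chromosome 11, 32409321 to 32457110, minus strand), the zinc finger factor named for Wilms tumor, was at 3.86, 2.87 and 3.86 FPKM (3.53 ± 0.573). SIX2 (ENSG00000170577, chromosome 2, 45232321 to 45236591, minus strand), the homeodomain factor that maintains nephron progenitors, was at 3.27, 2.78 and 2.78 FPKM (2.94 ± 0.281). EYA1 (ENSG00000104313, chromosome 8, 72109668 to 72504260, minus strand), a phosphatase and coactivator that works with SIX2, was at 2.32, 2.78 and 2.79 FPKM (2.63 ± 0.273). The ranges of WT1 and SIX2 and of SIX2 and EYA1 overlapped, so that the order of these neighbours was not resolved beyond the spread, whereas SALL1 and WT1 did not overlap.

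PAX2 (ENSG00000075891, chromosome 10, 102495153 to 102589701, plus strand), a paired-box factor of duct and progenitors, was at 2.87, 2.26 and 1.73 FPKM (2.28 ± 0.571). Its range overlapped that of EYA1 and not that of OSR1. OSR1 (ENSG00000143867, chromosome 2, 19551246 to 19558384, minus strand), the earliest known marker of the intermediate mesoderm among these genes, was at 0.996, 1.06 and 0.966 FPKM (1.01 ± 0.0465) and so on either side of the limit. With each library rescaled to TPM, OSR1 was on at a limit of 1 TPM, and 7 of the 8 factors were on. As FPKM summed to 517170 to 541348 in the EV libraries, 1 TPM is a lower limit there than 1 FPKM. PAX8 (ENSG00000125618, chromosome 2, 113973574 to 114036498, minus strand), the paired-box factor most similar in role to PAX2 and also a thyroid factor, was at 0.0875, 0.0791 and 0.0302 FPKM (0.0656 ± 0.0309). The mean of PAX2 was 34.8 times that of PAX8, and OSR1 was 15.3 times above PAX8, with no overlap between the libraries in either case.

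To show the DNA in front of the pair of PAX genes that act together in the early kidney but differed in level, and of a progenitor factor, the 250 bases before a RefSeq transcription start are given for PAX2 (chr10:100735146-100735395, plus strand, the first of the starts listed), PAX8 (chr2:113278922-113279171, minus strand) and SIX2 (chr2:45009453-45009702, minus strand), in GRCh38.p14 coordinates, which is not the build of the expression values. Capitals mark the GC box GGGCGG and CCAAT on either strand (CCGCCC and ATTGG on the other), and TATAAA was also searched on both strands.
PAX2: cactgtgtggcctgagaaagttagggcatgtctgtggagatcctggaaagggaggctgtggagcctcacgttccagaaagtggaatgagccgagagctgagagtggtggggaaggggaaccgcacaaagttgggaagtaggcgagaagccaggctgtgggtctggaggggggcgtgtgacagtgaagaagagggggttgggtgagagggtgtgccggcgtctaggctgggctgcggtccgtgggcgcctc
PAX8: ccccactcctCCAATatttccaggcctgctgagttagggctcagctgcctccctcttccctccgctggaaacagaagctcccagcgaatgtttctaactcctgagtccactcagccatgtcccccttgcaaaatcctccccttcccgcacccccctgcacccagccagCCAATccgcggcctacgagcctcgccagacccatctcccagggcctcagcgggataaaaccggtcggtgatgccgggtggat
SIX2: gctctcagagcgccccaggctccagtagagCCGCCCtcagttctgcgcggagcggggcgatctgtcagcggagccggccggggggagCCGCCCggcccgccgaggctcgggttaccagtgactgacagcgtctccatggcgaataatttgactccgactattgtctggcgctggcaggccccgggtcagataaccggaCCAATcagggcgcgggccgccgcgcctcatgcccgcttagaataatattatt
The SIX2 sequence held 2 GC boxes, 1 CCAAT, 26 CpG and 65.6% GC. The PAX8 sequence held 2 CCAAT, 11 CpG and 61.6% GC, with no GC box. The PAX2 sequence held 10 CpG and 61.6% GC and none of the 3 motifs. Of 35116 such sequences in the table, 42.6% held a GC box, 32% held CCAAT and 10.7% held TATAAA, and the medians were 11 CpG and 58% GC. The table had entries for 5 of the 9 factors, PAX2, PAX8, SIX2, WT1 and GATA3. These matches describe the sequence only, and the expression of PAX2 and PAX8 was not tested against them.

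The factors were then set among the other genes of their families, with levels per length so that genes can be compared. PAX2 was the 4th highest of 9 PAX genes in EV and PAX8 the 8th. PAX6, a factor of eye and brain development, was the highest at 19.0 FPKM and 8.33 times PAX2. EYA1 was the lowest of 4 EYA genes, with EYA3 the highest at 11.8 FPKM. SALL1 was the 2nd of 4 SALL genes after SALL2 (14.1 FPKM), GATA3 the 3rd of 6 GATA genes after GATA2 (14.8 FPKM) and GATA4 (13.2 FPKM), and OSR1 the lower of the pair with OSR2 (3.51 FPKM). In none of these families was the listed kidney factor the highest member.

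**Figure D2:**
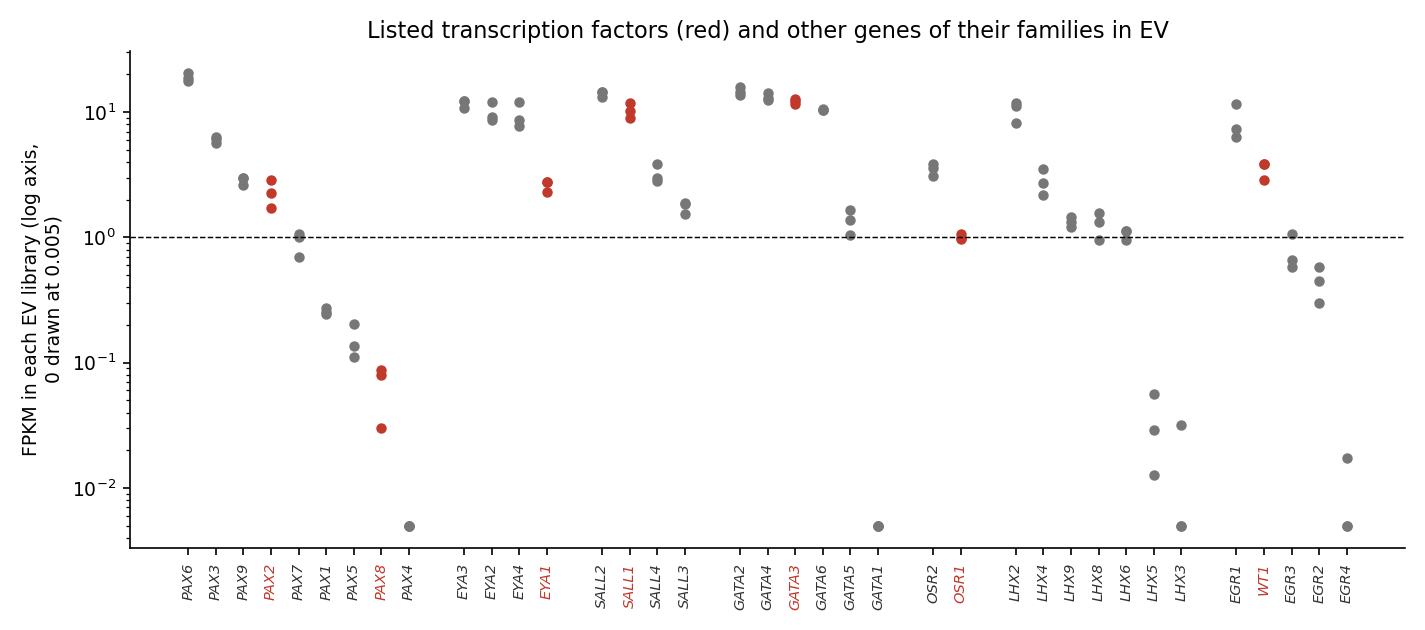
FPKM (log axis) in each of the 3 EV libraries of the listed factors other than SIX2 (red) and the other genes of their families (grey), ordered by mean within a family, with values of 0 drawn at 0.005 and the dashed line at 1 FPKM. PAX6, EYA3, SALL2, GATA2, OSR2 and EGR1 lie at the top of their families above the listed factor.

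Other genes were taken from lists of known regulators of kidney development, their cofactors and target genes of WT1. In the EV libraries 74 of 96 matched genes were on, with all 20 cofactors among them. Of the other lists, 10 of 11 progenitor partners, 11 of 15 ureteric bud regulators and 15 of 20 inductive signals and receptors were on. So were 8 of 14 nephron segment and podocyte factors, 4 of 7 stroma factors and 7 of 11 WT1 targets. The genes named below were all on. CITED1, a marker of uninduced nephron progenitors, was at 35.3 ± 4.72 FPKM and HOXD11, a patterning factor of the metanephric mesenchyme, at 19.9 ± 1.65. In the ureteric bud list GATA2 was at 14.8 ± 1.07 and SOX9, which acts at the branching tips, at 9.09 ± 1.46 FPKM. GDNF, the ligand that induces the bud, was at 1.69 ± 0.502 FPKM. SLIT2, a guidance ligand that limits where the bud forms, was at 38.2 ± 2.50 and FGFR1 at 34.1 ± 3.82 FPKM.

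The label of the cells was checked against markers. Of the markers of the mature nephron, LRP2 was the 1 of 8 proximal tubule genes on (6.81 FPKM), 0 of 6 loop and distal tubule genes were on, and the defining markers UMOD of the loop and AQP2 of the collecting duct were listed at 0 in all libraries. In the collecting duct list 2 of 6 were on (ATP6V1B1 and AQP3), and in the podocyte list 2 of 6 (PODXL and CLIC5). Of general epithelial markers 4 of 5 were on, with KRT8 at 176 FPKM, and of neuronal markers 3 of 5, with NEFM at 58.2 FPKM. No adrenal cortex or blood marker was on, nor was any of the 3 endothelial markers matched out of 4 listed. Of sympathoadrenal markers 1 of 7 was on (HAND2). PECAM1 of the endothelial list and NEFL of the neuronal list were not matched, so their levels were not read. Of fibroblast markers 2 of 7 were on, COL1A1 at 10.7 and PDGFRA at 1.87 FPKM.

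Whether ADARB1 changed the factors was asked by the comparisons of Short and Long with EV. In limma on log2(FPKM + 1) over all 13801 genes, with the passage as a block, 0 of 7 factors passed a Benjamini-Hochberg adjusted p of 0.05 in Short against EV, where 0.0362% of all genes tested passed, and 0 of 7 in Long against EV, where 8.32% did. In Long against Short 0 of 7 passed, against 0.00725% of all genes. In Long against EV the share was 4.24% among genes at 1 to 5 FPKM, the level of 5 of the factors. Among genes at 5 to 20 FPKM, the level of GATA3 and SALL1, it was 9.29%. The 1148 genes behind the 8.32% became 2 without replicate 1, 100 without replicate 2 and 2 without the block, while the count of factors was 0 in each of these fits. At an unadjusted p under 0.05, 0 of the 21 tests of the factors passed. Of all genes, not matched for level, 22.0%, 24.4% and 7.54% did in the 3 comparisons. The groups overlapped for all 7 factors in every comparison. Of all genes tested, 13.0%, 13.6% and 3.83% had groups that did not overlap. The median log2 fold change of the factors was 0.09, 0.05 and 0.01, beside 0.04, 0.04 and -0.02 over all genes tested. With the pseudocount of 1, fold changes of weakly expressed genes come out smaller than their ratios of FPKM.

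**Figure D3:**
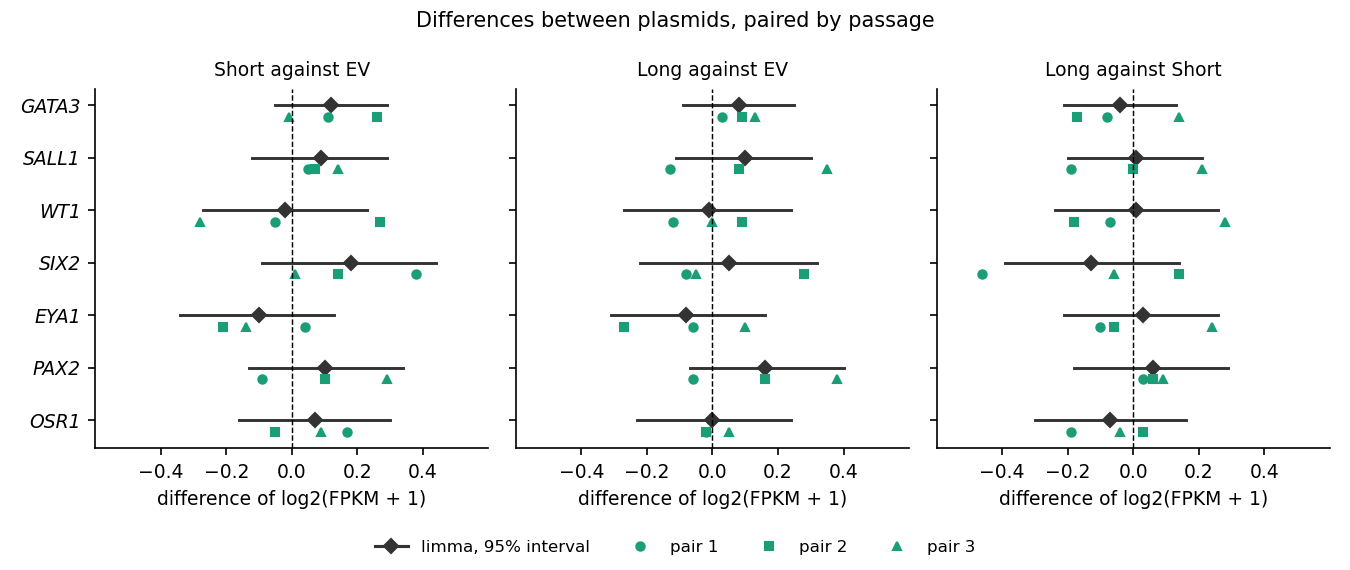
Differences in log2(FPKM + 1) of the 7 tested factors between plasmids, within each passage (points) and as the limma estimate with its 95% confidence interval (bars), for Short against EV, Long against EV and Long against Short. All intervals include 0.

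Among the progenitor factors, SIX2 had 4.54, 3.16 and 2.81 FPKM in Short replicates 1, 2 and 3, whereas Long had 3.03, 3.59 and 2.65. Short was above EV in 3 of 3 passages, by 0.38, 0.14 and 0.01 on the log2 scale, and the estimate was 0.18 (SE 0.12, 95% interval -0.09 to 0.44, limma adjusted p = 0.408). The exact permutation test over the 3 pairs gave p = 0.25, the smallest it can give. Short replicate 1 was higher than all other libraries, and Long was above EV only in replicate 2.

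SALL1 had 12.4, 10.8 and 9.97 FPKM in Short, whereas Long had 10.7, 10.9 and 11.7. Short was above EV in all 3 passages, by 0.05, 0.07 and 0.14, with an estimate of 0.09 (interval -0.12 to 0.29, adjusted p = 0.609). In EV and Short replicate 1 was the highest, and in Long replicate 3 was.

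EYA1 was at 2.40, 2.27 and 2.45 FPKM in Short and 2.18, 2.15 and 3.06 in Long. The estimates against EV were -0.10 for Short (interval -0.34 to 0.13, adjusted p = 0.59) and -0.08 for Long (-0.31 to 0.16, adjusted p = 0.709). The highest library was Long replicate 3 and the lowest Long replicate 2, so that the spread within Long exceeded the difference from EV. WT1 was at 3.69, 3.67 and 3.00 FPKM in Short and 3.47, 3.11 and 3.85 in Long, with estimates of -0.02 (interval -0.27 to 0.23) and -0.01 (-0.27 to 0.24), and the groups overlapped throughout.

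Of the duct factors, GATA3 reached 14, 14.2 and 12.2 FPKM in Short, and 13.2, 12.5 and 13.5 in Long. Long was above EV in 3 of 3 passages, by 0.03, 0.09 and 0.13 (estimate 0.08, interval -0.09 to 0.25, adjusted p = 0.549), and Short in 2 of 3 (estimate 0.12, interval -0.05 to 0.29, adjusted p = 0.369). PAX2 was at 2.64, 2.51 and 2.33 FPKM in Short and 2.71, 2.65 and 2.54 in Long. Its estimate was 0.10 for Short (interval -0.13 to 0.34, adjusted p = 0.601) and 0.16 for Long (interval -0.07 to 0.40, adjusted p = 0.385). EV replicate 3 was the lowest PAX2 library, and the 3 groups overlapped. Long was above Short in 3 of 3 passages, by 0.03 to 0.09 (exact permutation p = 0.25, the smallest possible with 3 pairs).

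Of the intermediate mesoderm factors, OSR1 was at 1.25, 0.992 and 1.09 FPKM in Short and 0.969, 1.03 and 1.03 in Long, and its estimates were 0.07 (interval -0.16 to 0.30) and 0.00 (interval -0.23 to 0.24). PAX8 had 0.0235, 0.144 and 0.0386 FPKM in Short, and 0.0703, 0.0691 and 0.0105 in Long. Long was below EV in 3 of 3 passages, which gave an exact permutation p of 0.25 over the pairs. The 3 groups overlapped, and PAX8 was not in the fit because of its low level.

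In the 3 comparisons together, the intervals of the 7 tested factors against EV reached from -0.34 to 0.44 for Short and from -0.31 to 0.40 for Long, and from -0.39 to 0.29 between Long and Short. Changes of these sizes in the factors are not excluded by the fit.

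Of 76 tested genes of the other kidney lists, 0 passed in any of the 3 comparisons with limma. At an unadjusted p under 0.05, 17, 10 and 6 did, beside 22.0%, 24.4% and 7.54% of all genes tested. In Short against EV the lowest adjusted p was 0.11 (limma), shared by TLE3, a corepressor (log2 0.25, SE 0.06), and GATA2, at 13.8 to 15.9 FPKM in EV and 18.2 in each Short library (log2 0.29, SE 0.08), and in the family list SALL2 had the same value (log2 0.24, SE 0.06). SPRY1, an inhibitor of RET signalling, was the nearest in Long against EV (log2 -0.28, SE 0.08, adjusted p = 0.0615). Of the marker lists, KRT8, 1 of 4 tested epithelial genes, was the 1 gene called. It had 176 FPKM in EV and 201 in Long (log2 0.20, SE 0.05, limma adjusted p = 0.0499). Of all genes tested, 8.32% were called in Long against EV. KRT8 passed in 1 of 12 alternative settings, with adjusted p (limma) from 0.0371 to 0.637. Its part in the values of the kidney factors was not tested.

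The libraries also differed by replicate number, which was taken to stand for the passage. Of all genes tested, 36.4% differed between passages in this sense (moderated F-test of limma, adjusted p under 0.05). Of the 7 factors 0 did. Among genes at 1 to 5 FPKM, the level of 5 of the factors, the share was 24.5%, and among genes at 5 to 20 FPKM, that of GATA3 and SALL1, it was 39.8%. The adjusted p of the factors ran from 0.181 for SIX2 to 0.96 for OSR1. The other kidney genes differed between passages in 37 of 76 (48.7%), from 11 of 15 inductive signals and receptors and 7 of 12 ureteric bud regulators to 6 of 20 cofactors and 1 of 4 stroma factors. Of the tested relatives of the factors in their own gene families, 5 of 23 (21.7%) did. JAG1, a Notch ligand, had passage means of 10.3, 9.54 and 6.77 FPKM and GDNF of 2.39, 2.02 and 1.31. EYA4, the relative of EYA1, was highest in passage 3 with 11.3 FPKM against 7.81 and 6.91. Without replicate 3, 0 of the 76 other kidney genes and 30 of the 13801 genes passed, whereas 22 of the 76 passed without replicate 1 and 36 without replicate 2. The difference between the factors and the other kidney genes was not tested. The estimated depth, with EV replicate 1 as 1, was highest in replicate 3 of each group. It was 1.16 in EV, 1.21 in Short and 1.11 in Long. The passage was not tested apart from depth or other differences that share the replicate number.

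**Figure D4:**
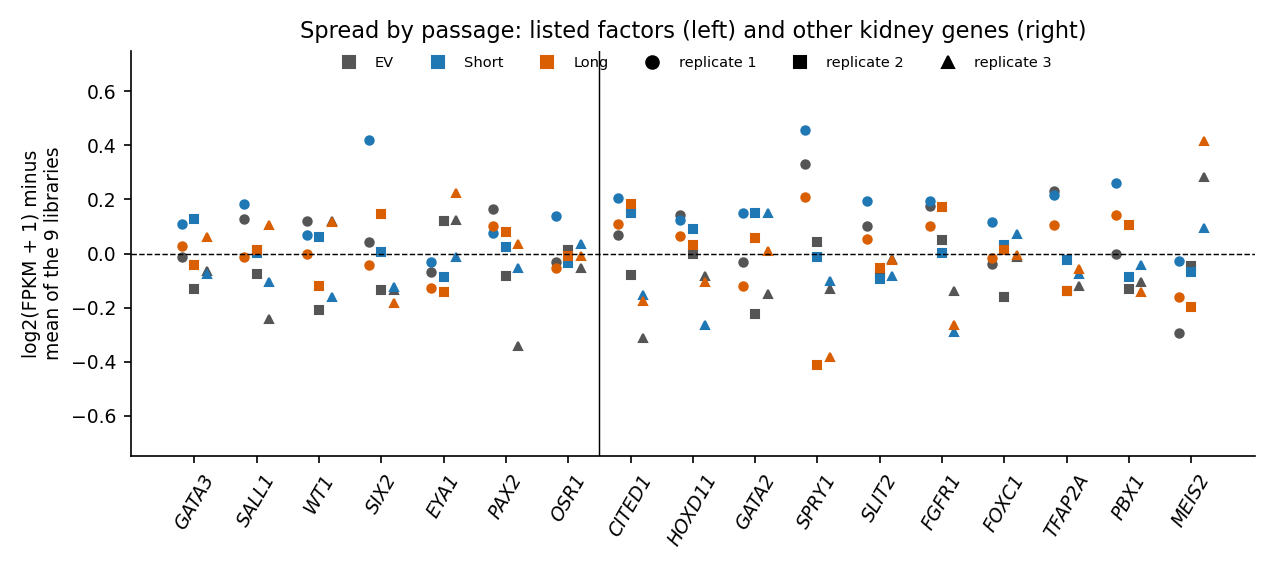
Deviation of log2(FPKM + 1) from the mean of the 9 libraries for the 7 tested factors (left of the line) and, from 5 lists of other kidney genes, the 2 genes with the highest EV mean in each (right). Points are libraries, colours are plasmids and shapes are replicate numbers. In CITED1, HOXD11 and FGFR1 the 3 libraries of replicate 3 lie below 0, as they do in SIX2, whereas in the 6 remaining tested factors the libraries of replicate 3 lie on both sides of 0.

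The spread over the 9 libraries was lowest for GATA3 (coefficient of variation 6.5%) and highest for SIX2 (18.6%), with OSR1 at 8.43%, SALL1 at 9.63%, WT1 at 11.3%, EYA1 at 12.8% and PAX2 at 13.6%. The highest SIX2 library was Short replicate 1, and the lowest PAX2 library was EV replicate 3.

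Genes that lie on the strand opposite a factor were also read. The libraries were strand-specific, but whether the counting used the strand is not stated. PAX8-AS1, which overlaps PAX8 over 60585 bases, was at 0.083 to 0.261 FPKM, and GATA3-AS1, which overlaps GATA3 over 3035 bases, at 0 to 0.267. WT1-AS overlaps WT1 over 47 bases. The values of PAX8 and PAX8-AS1 are therefore uncertain to the extent that reads were shared, while GATA3 was far above its partner.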

How the data were processed

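The authors used TopHat 1.4.1, with Ensembl transcripts as the first target and hg19 for the reads left over, and the submitters' processing notes also name Cufflinks. They deposited FPKM values per Ensembl gene and library, with replicates kept apart. Whether strand was used in counting is not given in the sources used here. Symbols came from GENCODE for GRCh37 and were found for 87.2% of the 54562 identifiers. FPKM was tested as log2(FPKM + 1) with limma 3.58.1 in R 4.3.3 (eBayes with trend) on 13801 genes (minimum mean 1 FPKM), with group and replicate number in 1 fit of all 9 libraries, with Benjamini-Hochberg adjustment (threshold 0.05). The methods state that transfections were repeated in different passages, and same-numbered libraries deviated together (r 0.327 to 0.813 over 9 pairs, against -0.634 to 0.366 for 18 other pairs). Single genes were compared by two-sided exact permutation tests, where 3 against 3 cannot go below 0.1. Alternatives were a pseudocount of 0.1, TPM and median-ratio scaling, no block, only the groups compared, no trend, no filter, a minimum mean of 5 FPKM, GC correction (loess span 0.3) and each replicate left out. Named genes are the listed factors, in each list the 2 with the highest EV mean, up to 4 that passed in a comparison, and the 3 genes most correlated with each factor, and the highest genes of each family and those nearest the threshold were named after their values were seen. Some genes of these lists are not reported here. The factors, lists and alternatives were chosen with earlier results of these data known.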

Additional observations from a re-analysis of the deposited data

How the results depend on the processing

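The number of factors called was 0 in each plasmid comparison under all 12 alternatives and between passages under those that give that test. The fit with no replicate block called 0 of 7 in each plasmid comparison. With a minimum mean of 5 FPKM only 2 factors were tested, and with no filter on low values 8 were. None of the 237 alternative fold changes of single factors passed the threshold. The lowest adjusted p (limma) was 0.329 in Short against EV, 0.21 in Long against EV (PAX2, without replicate 1) and 0.816 in Long against Short. The sign changed in 21 of these values, over 14 of 21 fold changes, with sizes of at most 0.13, and the cause was not tested. With GC correction and the replicate block, OSR1 and PAX2 in Short against EV both came to -0.01, in Long against EV GATA3 came to -0.01, OSR1 to -0.09 and SIX2 to -0.04, and in Long against Short SALL1 and WT1 both came to -0.02. With TPM scaling, Long against EV was -0.04 for OSR1 and -0.01 for SIX2, and with median-ratio scaling -0.02 for OSR1. With 1 replicate left out, Short against EV ran from -0.17 to 0.11 for WT1. Long against EV ran from -0.16 to 0.02 for EYA1, -0.02 to 0.01 for OSR1, -0.03 to 0.21 for SALL1, -0.07 to 0.12 for SIX2 and -0.06 to 0.04 for WT1. Long against Short ran from -0.08 to 0.09 for EYA1, -0.13 to 0.03 for GATA3, -0.09 to 0.11 for SALL1, -0.26 to 0.04 for SIX2 and -0.13 to 0.10 for WT1. With a limit of 5 FPKM, 2 factors were on in EV (GATA3 and SALL1) in place of 6. With the lower limits of 0.1 FPKM or of 1 TPM, 7 were, OSR1 being added. Among the other kidney genes, Long against EV called 4 with TPM scaling (FREM2, HDAC2, SIX4 and SPRY1, all lower), 2 with median-ratio scaling (FREM2 and SPRY1, lower), 1 with GC correction (SSBP2, higher) and 0 to 1 with a replicate left out (HNF4G, lower, without replicate 3). Between passages, 20 passed with no filter on low values, and 0 to 36 with a replicate left out. Over all genes, the count in Long against EV was 1148, but 2 with no replicate block, 319 with GC correction, 1 with no filter, and 2, 100 and 1031 without replicates 1, 2 and 3, so the share of 8.32% depended on the setting. FPKM without counts gives no counting error for single values, and 3 passages limit all tests.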

Other observations

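WT1-AS, the antisense transcript that overlaps WT1 by 47 bases, was below the mean of 1 FPKM required for testing. It was singled out after its values were seen. It was at 0.228, 0.162 and 0.195 FPKM in EV, 0.316, 0.334 and 0.418 in Short and 0.297, 0.776 and 0.524 in Long, so that both ADARB1 groups lay above EV with no overlap. The exact permutation test of 3 against 3 gave p = 0.1 in both comparisons, the smallest it can give, and among the 4734 genes with a mean of 0.1 to 1 FPKM 9.93% (Short) and 10.7% (Long) had groups that did not overlap. In limma with no filter on low values the log2 fold change was 0.18 (adjusted p = 0.495) for Short and 0.35 (adjusted p = 0.174) for Long. WT1 itself overlapped between groups. Whether reads of WT1 contribute to these values was not tested.

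The protein-coding genes whose levels followed each factor most closely over the 9 libraries, out of 12089, are given as a description, since all points share the libraries and their passages. They were CPNE1, CTTN and ARPIN-AP3S2 for PAX2 (Pearson r = 0.980, 0.978 and 0.977), and RARG, a retinoic acid receptor, and TSPYL1 for SIX2 (0.960 and 0.954). For WT1 they were TTC8, AP1S3 and ING5 (0.938, 0.876 and 0.866), for EYA1 ZNF443, NXT2 and SLC35A1 (0.960, 0.953 and 0.926) and for SALL1 SHPK, ATXN7L3 and PLXNA2 (0.975, 0.962 and 0.939). For GATA3 they were ZNF74, NDRG2 and SUMF1 (0.974, 0.959 and 0.948) and for OSR1 CPEB2, CCDC169 and TIMM9 (0.933, 0.923 and 0.917). Among the factors themselves, PAX2 and SALL1 had the highest r (0.86) and PAX2 and EYA1 the lowest (-0.55).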
